A study of Mus musculus with 4 samples.

Results

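Transcripts of complement components and regulators that kidney tubular and stromal cells are known to make were compared between SerpinB2-/- and wild type primary tubular cells. The set held 9 genes, taken by name: C3, C4b, C1ra, C1s, C2, Cfb, Cfi, Serping1 and Cd55. They were found through the gene names in the scanner files, where C1s is listed as C1s1, and were carried by 13 of 39429 probes. Of the 9 genes, 8 were well above background in at least 1 genotype and were tested among 18392 genes. Cfb was not well above background on any array.

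Each genotype was represented by 2 arrays. The cells came from kidneys of male B6.J mice aged 8 weeks, either wild type or SerpinB2-/-, and all 4 cultures had received PMA at 100 ng/ml. PMA is a phorbol ester and an activator of protein kinase C. Both genotypes carried this treatment, and cells without PMA were not analysed here. The labels do not say which part of Serpinb2 was deleted, whether the samples came from separate animals or cultures, or which other cells the cultures held. All p-values therefore measure the spread between these samples, which may be technical.

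Complement is a cascade of plasma proteases and their substrates. In the classical pathway, C1q binds antibody or debris and activates the protease C1r, C1r activates C1s, and C1s cleaves C4 and C2, whose fragments form an enzyme that splits C3. In the alternative pathway, factor B takes the place of C2 on deposited C3b. Regulators oppose these steps: C1 inhibitor (Serping1) inactivates C1r and C1s, factor I (Cfi) degrades C3b and C4b, and Cd55 breaks up the enzymes that split C3. Most plasma complement comes from the liver, and renal tubular cells also make several components, C3 among them, during inflammation.

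The targeted gene bore out the labels: Serpinb2 gave 3207 and 3276 units of scaled signal in wild type, against 5.47 and 7.39 in SerpinB2-/- cells, at least 140-fold lower. Signals are given on the scanner's linear scale after the 75th percentile of every array was set to the same value. On this scale the lowest signal that counted as well above background was 23.0 to 24.8 units. Over all genes, limma called 15.7% at an adjusted p under 0.05, 6.01% higher and 9.67% lower in SerpinB2-/- cells. Scaling by the median instead called 4338 genes higher and 1245 lower, against 1105 and 1779, and moved the median change of all genes from 0.01 to 0.14 on the log2 scale. Quantile normalization called 1116 higher and 1260 lower, and scaling by the detected probes 860 and 2163. All 12 epithelial markers listed were measured, from Slc34a1 (35.2 to 48.9 units) to Krt18 (207900 to 260900 units). Tagln, a fibroblast and pericyte marker, was of like brightness to Krt18 (222800 to 302000 units). Of the other markers in its list, Col1a2 gave 79350 to 106800 units, Pdgfra 74.7 to 102 and Dcn 21.8 to 32.1, near the detection limit. Leukocyte and endothelial markers were measured as well. The tubular identity and purity of the cultures were therefore not established by these values. All 4 arrays lay on 1 slide in an order that follows genotype, so position on the slide and genotype cannot be told apart.

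The genes moved in opposite directions. C1s1 and Serping1 rose 1.82-fold and 1.83-fold in SerpinB2-/- cells, while Cd55 and Cfi fell to 0.656 and 0.755 of their wild type signal. C3 was 1.51-fold higher and lay at the threshold (adjusted p = 0.0511). C4b, C1ra and C2 did not pass. Thus 2 of 8 tested genes rose, where 6.01% of all genes did, and 2 of 8 fell, where 9.67% did. The median log2 change was 0.12, against 0.01 over all genes. The signals of the 2 genotypes did not overlap for 7 of the 8 genes, where 64.3% of all genes showed this. It was 4 genes higher and 3 lower, where 32.5% and 31.9% of all genes were, so the count is near the background. The number of calls was 1 or 2 with wild type replicate 1 or 2 left out, respectively. It was 0 when dim probes were kept (6 at an unadjusted p under 0.05 by limma). The share of all genes under that unadjusted threshold is not given, so the 6 cannot be set against a background.

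**Figure D1:**
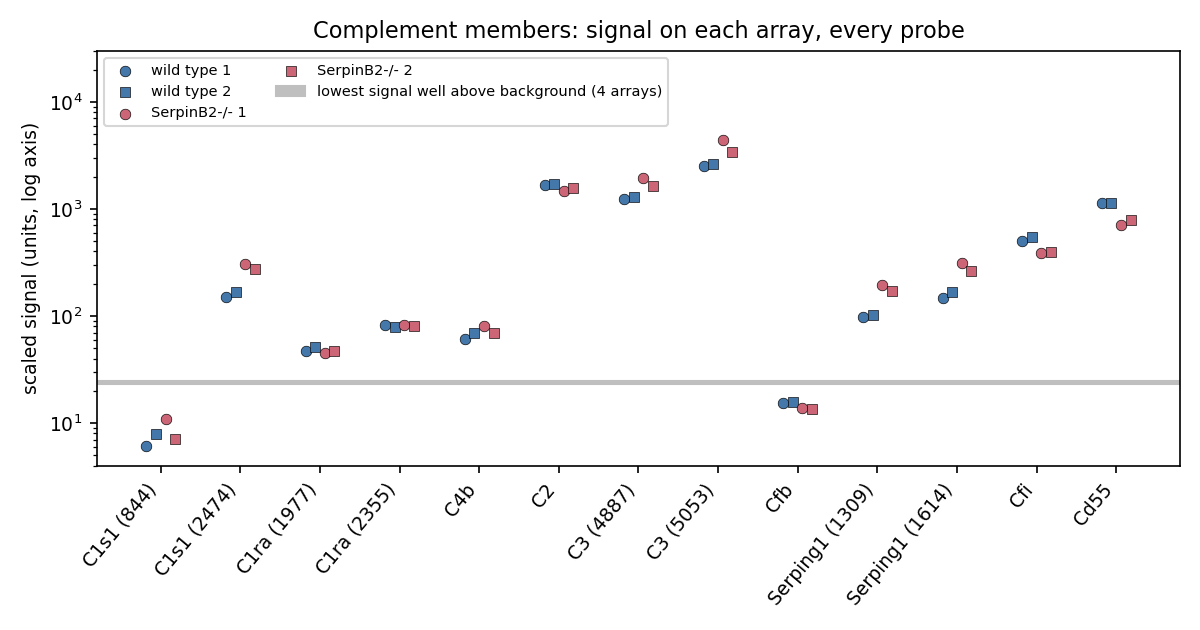
Scaled signal in units on a log axis for every probe of the 9 genes, with 1 point per array, circles for replicate 1 and squares for replicate 2; the number in brackets is the position of a probe in its transcript, given where a gene has more than 1 probe. SerpinB2-/- points lie above the wild type points for C1s1 (2474), both Serping1 and both C3 probes and below them for Cfi and Cd55, and the Cfb points (13.6 to 15.9 units) lie under the grey band of detection limits.

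C1s1 encodes the protease C1s, which cleaves C4 and C2. Its probe for the main transcript, on chromosome 6 at 124480775 to 124480834 (mm9, minus strand), gave 149 and 168 units in wild type, against 307 and 272 in SerpinB2-/- cells. Both SerpinB2-/- arrays were above both wild type arrays, and the gap between the groups was 0.69 on the log2 scale, against 0.17 between replicates of either genotype. The log2 change was 0.87 ± 0.10 (SE, n = 2 per group, adjusted p = 0.0111 by limma). The call held without each array in turn. A second C1s1 probe, for a predicted transcript variant, gave 6.04 to 10.9 units and was not well above background on any array.

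C1ra encodes the protease C1r, which activates C1s, and its brightest probe lies 7.72 kb from that of C1s1. This probe gave 82.5 and 78.0 units in wild type, against 82.6 and 80.1 in SerpinB2-/- cells, and the groups overlapped. The log2 change was 0.02 (95% interval -0.14 to 0.18, adjusted p = 0.845). A further C1ra probe gave 46.8 and 50.8 units in wild type, against 44.9 and 47.0 in SerpinB2-/- cells. C1ra thus did not pass at either probe, while its neighbour C1s1 did. On the log2 scale the difference between C1s1 and C1ra was larger by 0.85 in SerpinB2-/- cells and did not overlap between the genotypes (exact two-sided permutation test over the samples, p = 0.333, adjusted p = 0.4 over the 6 such differences computed). This raw p is the smallest that 2 samples against 2 allow. The difference had to separate the genotypes, since C1s1 did so by 0.69 and C1ra differed by at most 0.08 between arrays. It adds no result to those of the single genes.

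Serping1 encodes C1 inhibitor, the serpin that inactivates C1r and C1s. Its brightest probe (chromosome 2, 84605663 to 84605722, mm9) gave 147 and 167 units in wild type, against 310 and 264 in SerpinB2-/- cells. The log2 change was 0.87 ± 0.11 (adjusted p = 0.0140), and the adjusted p was 0.0544 without wild type replicate 1. A further probe covers an exon junction of the coding region, its 60 bases being spread over 1507 bases of the genome. It gave 97.5 and 101 units in wild type, against 196 and 171 in SerpinB2-/- cells. Both probes placed the SerpinB2-/- arrays above the wild type arrays by nearly the same log2 change (0.88 at the second, adjusted p = 0.00879 in the fit of every probe, which called 16% of probes). The log2 difference between C1s1 and its inhibitor Serping1 changed by 0.00 between the genotypes (exact p = 1, adjusted p = 1). The second probe is shown with the coding probes of C3 and Cfb, because those of Serping1 and C3 gave the same direction as the brightest probes, and that of Cfb is the only one named for the gene. They lie on the minus strand of mm9 at chr2:84605968-84607474, chr17:57343678-57343737 and chr17:34993502-34993858, in this order, with no capitals since no part stands out.
Serping1: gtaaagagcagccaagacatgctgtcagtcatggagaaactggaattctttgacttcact
C3: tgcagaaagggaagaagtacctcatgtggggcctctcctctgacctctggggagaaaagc
Cfb: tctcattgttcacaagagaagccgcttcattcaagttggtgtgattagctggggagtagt

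C3 is the substrate on which all complement pathways meet. Its brightest probe (chromosome 17, 57343416 to 57343475, mm9) gave 2514 and 2647 units in wild type, against 4437 and 3402 in SerpinB2-/- cells. Both SerpinB2-/- arrays were above the wild type arrays, but they differed from each other by 0.38 on the log2 scale, against 0.07 between the wild type arrays. The SD over the 4 spots of the probe was at most 0.042 on any array, so the spread between the SerpinB2-/- arrays was larger than the spot error. The log2 change was 0.59 ± 0.14, with a 95% interval of 0.24 to 0.95. The coding probe shown above gave 1242 and 1289 units in wild type, against 1946 and 1644 in SerpinB2-/- cells (0.50 ± 0.10, adjusted p = 0.0331 in the fit of every probe). In that fit the brightest probe passed as well (adjusted p = 0.0480). Whether C3 passes therefore depended on the setting, and it passed in 9 of 19 alternatives. Without SerpinB2-/- replicate 2 its log2 change was 0.78 (adjusted p = 0.0178), and without SerpinB2-/- replicate 1 it was 0.40 (adjusted p = 0.0656).

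C4b and C2 encode the substrates of C1s. They lie with Cfb in the class III region of the major histocompatibility complex on chromosome 17, where the C2 and Cfb probes are 6.07 kb apart and the C4b probe 128 kb from that of Cfb. C4b gave 60.7 and 68.6 units in wild type, against 81.1 and 69.8 in SerpinB2-/- cells. Its groups were separated by 0.02 on the log2 scale, less than the 0.18 and 0.22 between replicates, and the change of 0.22 did not pass (95% interval -0.05 to 0.49, adjusted p = 0.214). Whether the C4b probe also binds transcripts of the closely related C4a was not tested. C2 gave 1661 and 1721 units in wild type, against 1484 and 1580 in SerpinB2-/- cells. The groups did not overlap, and the log2 change of -0.14 did not pass (95% interval -0.31 to 0.02, adjusted p = 0.190). Cfb, the alternative pathway protease next to C2, gave 15.5 and 15.9 units in wild type, against 13.8 and 13.6 in SerpinB2-/- cells, below the detection limit throughout. Its probe covers an exon junction of the coding region (357 bases of the genome), and no further probe was named for the gene.

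Cfi encodes factor I, the protease that degrades C3b and C4b with the help of cofactors. Its probe (chromosome 3, 129578165 to 129578224, mm9) gave 499 and 544 units in wild type, against 389 and 398 in SerpinB2-/- cells. All values of the SerpinB2-/- arrays were lower, and the SD over spots was at most 0.098. The log2 change was -0.41 ± 0.07 (adjusted p = 0.0261). It did not pass with any single array left out (adjusted p = 0.0614 and 0.100 without wild type replicate 1 or 2, 0.0830 and 0.0750 without SerpinB2-/- replicate 1 or 2). Scaling by the median gave -0.27 (adjusted p = 0.0401).

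Cd55 encodes decay accelerating factor, which protects a cell's own surface. Its probe (chromosome 1, 132335716 to 132335775, mm9) gave 1144 and 1129 units in wild type, against 712 and 782 in SerpinB2-/- cells. The log2 change was -0.61 ± 0.07 (adjusted p = 0.0120), with a separation of 0.53 between the groups, against 0.02 between the wild type and 0.14 between the SerpinB2-/- arrays. The adjusted p was 0.0560 and 0.0542 without wild type replicate 1 or 2. Its paralogue Cd55b (listed as Daf2), whose brightest probe lies 28.5 kb away, gave 184 and 195 units in wild type, against 98.5 and 109 in SerpinB2-/- cells. Cd55b fell as well (-0.87 ± 0.08, adjusted p = 0.00815; -0.57 with normexp background correction). In the best ungapped alignment of the 2 probes, 22 of 59 bases were identical. The Cd55 probe lies 22.9 Mb from that of Serpinb2 on the same chromosome. Of 7 other genes tested within 500 kb of it, 2 rose and 3 fell, Cd55b included, with a median of -0.34. Over all genes, 6.01% rose and 9.67% fell. Near C1s1, 4 of 23 genes rose and 2 fell, near C3 0 of 21 rose and 4 fell, and near Cfi 0 of 8 did either. Counts near the remaining complement genes are not given. Whether the position on chromosome 1 bears on Cd55 was not tested. The log2 difference between C3, whose activation Cd55 limits, and Cd55 was larger by 1.2 in SerpinB2-/- cells (2.29-fold, exact p = 0.333, adjusted p = 0.4). That between C3 and Cfi was larger by 1.00 (exact p = 0.333, adjusted p = 0.4). Both differences had to separate the genotypes, since C3 was higher and Cd55 and Cfi were lower without overlap. They add no result to those of the single genes.

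**Figure D2:**
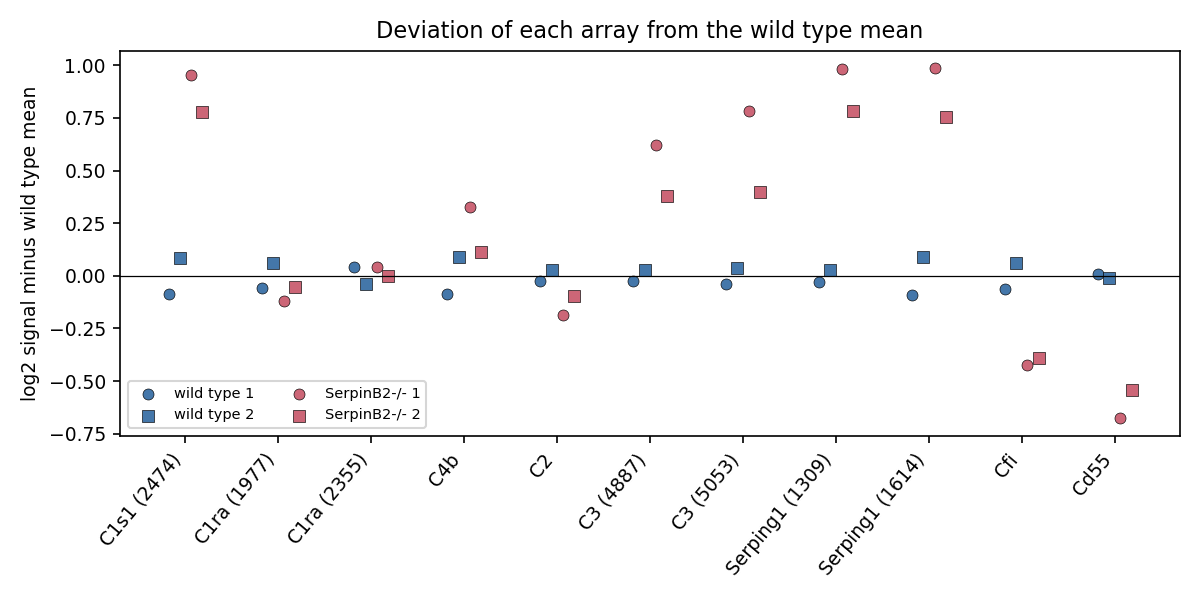
Log2 signal of each array minus the wild type mean for the probes of the tested genes, circles for replicate 1 and squares for replicate 2, with brackets giving the position in the transcript where a gene has more than 1 probe. The SerpinB2-/- points of C1s1, C3 and Serping1 lie above 0, with replicate 1 higher than replicate 2, those of Cfi and Cd55 lie below 0, and those of C1ra overlap with wild type.

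The genes with a higher mean in SerpinB2-/- cells had the same order on the 2 arrays of that genotype. C1s1, Serping1, C3, C4b and C1ra were each higher on SerpinB2-/- replicate 1 than on replicate 2, 5 of the 8 tested genes, where 44.4% of all genes were. In wild type, 6 of the 8 were higher on replicate 2, where 49.5% of all genes were. These orders rest on 2 arrays per genotype, and no result is drawn from them. The signal of the fibroblast and pericyte markers was summed over their list, although single markers differed in order (Cspg4 was higher on SerpinB2-/- replicate 1). Most of the sum came from Tagln, Acta2, Col1a2 and Col1a1, which did not pass. It was 653200 units on SerpinB2-/- replicate 1 and 738100 on replicate 2, against 621300 and 511600 in wild type. Of 13 measured markers of this list 3 rose and 0 fell, where 6.01% of all genes rose and 9.67% fell. Postn, a matricellular protein, went from 2379 and 2038 units to 4042 and 5414 (1.09 ± 0.16, adjusted p = 0.0198). Mfap5, a microfibril protein, rose by 0.95 ± 0.18 (adjusted p = 0.0337). The Postn call was lost on leaving out wild type replicate 1 or 2 (adjusted p = 0.0544 and 0.0759), and the Mfap5 call without SerpinB2-/- replicate 1 or 2 (0.0697 and 0.0855). Lum and Rgs5 of this list were not well above background. Whether fibroblasts or pericytes had a part in the rise of C1s1 and Serping1 was not tested. In such bulk samples, fewer cells of a type and less RNA per cell cannot be told apart.

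The promoters of C3 and C1s1, which were higher in SerpinB2-/- cells, and of the neighbouring C1ra, which did not pass, are shown as far as they lie outside the gene. They come from RefSeq on GRCm38.p6, where 4 of the 9 genes had an entry (C3, C1s1, C1ra and Cd55). The windows were searched on both strands, over the 250 bases before the gene start, for TTGCNNAA (C/EBP), TGANTCA (AP-1), TTCNNNGAA (STAT), GGGA and TTCC with any 2 bases between them (NF-kB), and 2 copies of GAAA with any 2 bases between them (interferon response). Capitals mark the matches.
C3: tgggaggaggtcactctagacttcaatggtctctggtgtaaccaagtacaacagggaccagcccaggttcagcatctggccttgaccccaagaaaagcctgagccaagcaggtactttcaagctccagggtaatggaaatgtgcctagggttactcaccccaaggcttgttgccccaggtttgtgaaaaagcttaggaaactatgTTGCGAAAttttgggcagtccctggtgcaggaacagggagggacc
C1s1: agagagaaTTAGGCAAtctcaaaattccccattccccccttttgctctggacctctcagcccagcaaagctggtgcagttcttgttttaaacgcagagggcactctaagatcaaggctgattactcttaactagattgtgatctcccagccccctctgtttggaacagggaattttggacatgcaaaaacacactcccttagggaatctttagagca
C1ra: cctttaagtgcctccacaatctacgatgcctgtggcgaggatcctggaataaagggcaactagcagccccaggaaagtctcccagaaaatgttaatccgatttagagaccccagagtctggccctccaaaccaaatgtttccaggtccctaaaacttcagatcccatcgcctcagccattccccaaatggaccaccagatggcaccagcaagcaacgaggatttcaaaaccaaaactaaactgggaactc
The C3 window is chr17:57228137-57228386 on the minus strand, the C1s1 window chr6:124542393-124542609 on the minus strand and the C1ra window chr6:124512371-124512620 on the plus strand. C3 held a single match, TTGCGAAA, which starts 45 bases before the gene start. C1s1 held a single C/EBP match, TTAGGCAA, on the opposite strand 242 bases before the start of its first listed transcript. The window of its other listed start held no match. This motif was present in 9.56% of all windows of this length in the table. The windows of C1ra and Cd55 held no match to the 5 motifs. The AP-1, STAT, interferon response and NF-kB letters occurred in 6.75%, 7.02%, 2.98% and 1.21% of all windows.

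In each list of other complement genes more members fell than rose in SerpinB2-/- cells. Over all genes, too, more fell (9.67%) than rose (6.01%), and these shares are the background for every list count below. The counts include genes kept by the filter through 1 genotype alone, the one where they were brighter. These are C1rb, the endothelial marker Tie1 and Hc among the falls, and Vsig4 among the rises. With scaling by the median, 4338 of all genes rose and 1245 fell, and list counts under that setting are not given. Of 10 measured recognition molecules and proteases 2 rose and 4 fell, with a median of -0.27 (0.01 over all genes). All chains of C1q fell. C1qa gave 1802 and 1622 units in wild type, against 1052 and 969 in SerpinB2-/- cells (-0.76 ± 0.08, adjusted p = 0.0108). C1qb fell by 0.73 ± 0.08 and C1qc by 0.64 ± 0.11 (adjusted p = 0.0112 and 0.0261). C1qc lost its call without wild type replicate 1 (adjusted p = 0.0759) or SerpinB2-/- replicate 2 (0.0727). The C1q chains and C1s1 thus moved in opposite directions. C1q is known as a product of macrophages, and 10 of 15 leukocyte and macrophage markers fell in the same samples. The summed signal of these markers was 18540 to 19810 units in wild type and 12070 to 14260 in SerpinB2-/- cells, with all 15 markers measured. Fcgr1, an Fc receptor, fell by 1.08 ± 0.06 (0.55 with normexp), and the actin regulator Coro1a by 1.02 ± 0.10 (adjusted p = 0.00704 and 0.00925). Their part in the fall of C1q was not tested.

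C1s2, a paralogue of C1s1 on the same chromosome, had a probe with 149 and 164 units in wild type, against 325 and 276 in SerpinB2-/- cells (0.94 ± 0.10, adjusted p = 0.0109). This change is close to that of C1s1. A further C1s2 probe was not well above background on any array (5.52 to 6.53 units). The brighter probes of C1s1 and C1s2 have different sequences, with at most 21 of 58 bases identical in any ungapped alignment. Whether either probe also binds transcripts of the other gene was not tested.

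Among the remaining components, 2 of 3 measured genes fell and 0 rose. Cfp, which encodes properdin, the stabiliser of the alternative pathway enzyme, gave 1602 and 1417 units in wild type, against 1081 and 1056 in SerpinB2-/- cells (-0.50 ± 0.08, adjusted p = 0.0231). Leaving out wild type replicate 1 (adjusted p = 0.0762), SerpinB2-/- replicate 1 (0.0591) or SerpinB2-/- replicate 2 (0.0724) ended its call. Hc, the gene of complement component C5, gave 35.6 and 34.3 units in wild type, against 19.9 and 21.9 in SerpinB2-/- cells. It was not well above background in SerpinB2-/- cells and was at least 1.5-fold lower (adjusted p = 0.00908). The filter kept it through wild type alone, where it was brighter, and so favoured a fall. With normexp it no longer passed (-0.17, adjusted p = 0.293). Cfd, C6, C7, C8a, C8b and C9 were not well above background in either genotype.

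Of 11 further regulators 1 rose and 4 fell, with a median of -0.23. Cpn1, the catalytic chain of carboxypeptidase N, which trims anaphylatoxins, gave 271 and 264 units in wild type, against 119 and 120 in SerpinB2-/- cells (-1.16 ± 0.06, adjusted p = 0.00704). Susd4, a membrane protein with complement control domains, gave 3925 and 4144 units against 1975 and 1995 (-1.02 ± 0.06, adjusted p = 0.00704). Cr1l, the rodent membrane regulator Crry, stayed within 10220 to 11170 units on the 4 arrays (0.07 ± 0.06, adjusted p = 0.501). The falls of Cd55 and Cfi occurred beside a fall in 5 of 12 epithelial markers, with 1 that rose. The summed signal of that list was 568700 and 569100 units in wild type, against 451100 and 473800 in SerpinB2-/- cells. Most of this sum came from the keratins Krt18 and Krt8, of which Krt8 fell (adjusted p = 0.0363) and Krt18 did not pass (0.098). Cdh1, the epithelial cadherin, fell by 0.79 ± 0.06 and Epcam, an epithelial adhesion protein, by 0.58 ± 0.12 (adjusted p = 0.00757 and 0.0374). The Epcam call was lost on leaving out wild type replicate 2 (adjusted p = 0.0921), SerpinB2-/- replicate 1 (0.101) or SerpinB2-/- replicate 2 (0.0662). Hnf4a, a transcription factor of the proximal tubule, rose from 456 and 411 units to 613 and 670 (0.57 ± 0.08, adjusted p = 0.0194), a call that ended on leaving out wild type replicate 2 (0.0747) or SerpinB2-/- replicate 2 (0.0582). The proximal tubule receptors Lrp2 and Cubn gave log2 changes of 0.01 each (adjusted p = 0.924 and 0.906), and the transcription factor Pax8 one of 0.18 (adjusted p = 0.131). The part of these cells in the falls of Cd55 and Cfi was not tested.

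Of 9 receptors 1 rose and 4 fell, with a median of -0.56. The anaphylatoxin receptors C3ar1 and C5ar1 fell by 0.73 ± 0.09 and 0.86 ± 0.08 (adjusted p = 0.0128 and 0.00849). C3ar1 gave 202 and 175 units in wild type, against 115 and 112 in SerpinB2-/- cells, and its fall was 0.48 with normexp. C3 was higher, by a change at the threshold, in the same bulk samples in which C3ar1 was lower. Whether the same cells held both transcripts was not tested. Cd93, an endothelial and myeloid surface protein first described as a C1q receptor, gave 7216 and 8206 units in wild type, against 2758 and 3240 in SerpinB2-/- cells (-1.36 ± 0.11, adjusted p = 0.00755). Endothelial markers fell in 10 of 11 measured cases, among them Plvap, a protein of endothelial vesicles (-1.78 ± 0.23, adjusted p = 0.0157), and the guidance receptor Robo4 (-1.77 ± 0.22, adjusted p = 0.0138). Plvap lost its call without wild type replicate 2 (adjusted p = 0.0612), and Robo4 without replicate 1 or 2 of wild type (0.0514 and 0.0576). Their summed signal was 15940 to 16460 units in wild type and 9196 to 11580 in SerpinB2-/- cells, with Tek not well above background. Their part in the fall of Cd93 was not tested. Vsig4, the macrophage receptor for C3b, rose by 1.31 ± 0.26 (adjusted p = 0.0359), and by 0.54 with normexp. In wild type only replicate 1 was well above background. The filter thus kept Vsig4 through SerpinB2-/- cells alone, where it was brighter, and so favoured a rise. Its call ended without SerpinB2-/- replicate 1 or 2 (adjusted p = 0.0760 and 0.0840) and with outlier spots kept (0.0586).

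Of 20 measured transcription factors and cytokine receptors that act upstream of complement genes, 1 rose and 0 fell. Their log2 changes ran from -0.19 to 0.39, with a median of -0.01. The receptor of oncostatin M, Osmr, gave 2436 and 2394 units in wild type, against 2988 and 3371 in SerpinB2-/- cells (0.39 ± 0.08, adjusted p = 0.0370). Leaving out wild type replicate 1 (adjusted p = 0.119), wild type replicate 2 (0.132) or SerpinB2-/- replicate 2 (0.108) ended its call. Acute phase proteins, which share cytokine control with complement in the liver, had 1 rise and 1 fall among 6 measured genes. Lcn2, an iron-binding lipocalin, fell from 35140 and 45800 units to 12510 and 12740 (-1.67 ± 0.13, adjusted p = 0.00755). The fibrinogen chain Fgb rose from 76.4 and 86.4 units to 190.0 and 235 (1.38 ± 0.13, adjusted p = 0.00849). Saa1 (-0.04), Hp (0.00), Hpx (-0.13) and Cp (0.16) did not pass. C3 moved in the direction of Fgb and opposite to Lcn2, and the list as a whole had no common direction.

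**Figure D3:**
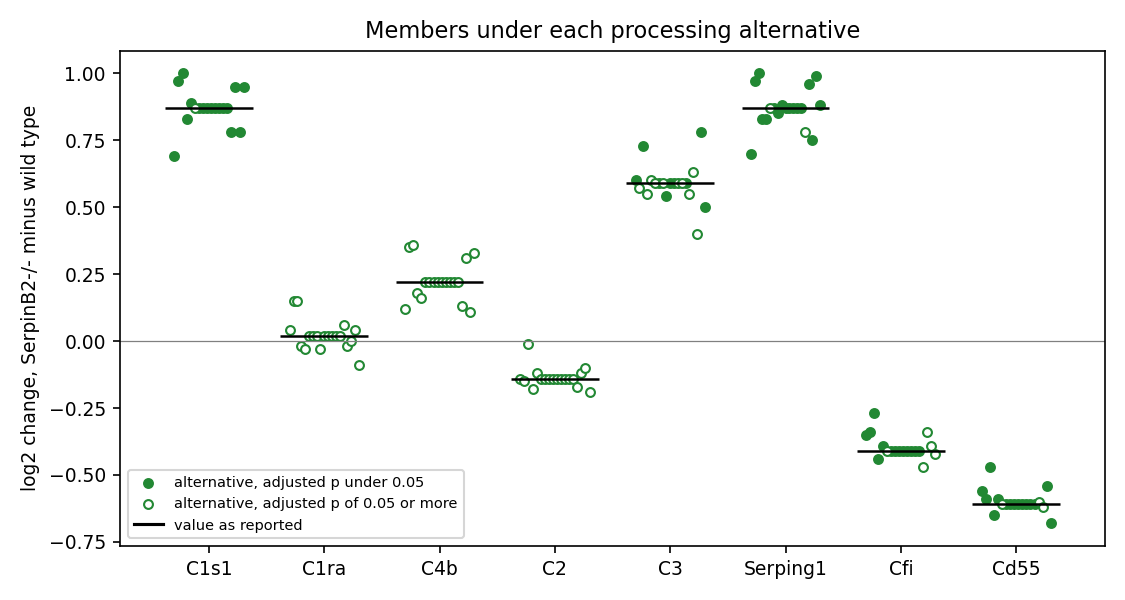
Log2 change (SerpinB2-/- minus wild type) of each tested gene under every processing alternative, as points filled where the adjusted p was under 0.05, with a black line for the value as reported. C1s1 ranged from 0.69 to 1.00, Serping1 from 0.70 to 1.00, C3 from 0.40 to 0.78, Cfi from -0.47 to -0.27 and Cd55 from -0.68 to -0.47.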

How the data were processed

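Per the labels, 150 ng of total RNA per sample was labelled with Cy3. The intensity values were made, per the file headers, by Agilent Feature Extraction 10.7.3.1, subtracting background, removing spatial trends and replacing dim spots by surrogates. The deposited intensity was used as given, and probe positions are on mm9. The authors' deposited table of processed intensity (75th percentile 1500, floor 4) served as an alternative.

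The 39429 non-control probes were printed 4 times each. Spots flagged as outliers were left out, log2 signals of the rest were averaged, and the 75th percentile of each array was subtracted. A probe was used if over 50% of its spots were well above background on both arrays of at least 1 genotype, and the brightest probe stood for its gene. Names were updated through RefSeq (28328 probes by accession, 243 by an older symbol). The fit over all genes used limma 3.58.1 (R 4.3.3, Benjamini-Hochberg adjustment, threshold 0.05). This fit was also run on simulated independent noise with known changes added. That run cannot test the effects of slide position, technical replicates or scaling. A bound ("at least N-fold") sets the bright group against the detection limit of the dim one.

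Named are all 9 genes, Serpinb2, up to 4 called genes with the largest change per complement list and up to 2 per other list. Other names (Cr1l, C1rb, Tie1, further fibroblast and tubular markers, and genes without signal) were chosen after their values were seen. Some items counted in the lists are not reported here by name. The genes and lists were chosen with earlier results of these data known. Alternatives covered background, normalization, filter, probe choice, variance model, the replicate number and each array left out. The number of arrays limits the precision, and no spot was saturated (0).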

Additional observations from a re-analysis of the deposited data

How the results depend on the processing

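The directions of C1s1, Serping1, C3, C4b, C2, Cfi and Cd55 were the same in every alternative run, while C1ra ranged from -0.09 to 0.15 on the log2 scale. The number of called complement genes was 4, with 2 higher and 2 lower. With dim probes kept it was 0 (0 higher and 0 lower, by limma), against 6 at an unadjusted p under 0.05. In that setting 3 genes in all were called, 1 higher and 2 lower, of 29875 tested. For the counts at an unadjusted p, here and in the next sentence, the share of all genes is not given. Leaving out each array gave 1 to 4 called complement genes, 1 to 3 higher and 0 to 1 lower (2 lower in each case at an unadjusted p), and 753 to 1579 genes in all, 209 to 497 higher and 536 to 1082 lower. Median scaling called 5583 genes, 4338 of them higher, and a trended variance 1738 higher. C3 passed with normexp (0.60, adjusted p = 0.0272), median scaling (0.73, 0.0237), probes measured on all arrays (0.0416), the mean of its probes (0.0426), every probe by itself (0.0480), a trended variance (0.0225), the replicate block (0.0333), its further probe and without SerpinB2-/- replicate 2. The replicate number as a block called 5 complement genes, 3 higher and 2 lower, and 2143 genes in all, 689 of them higher. The deviations of same-numbered samples correlated at 0.262 over genes, and no label says that the numbers pair samples. The further probe was an alternative chosen after seeing the data. The causes of these shifts were not tested. Osmr lost its call with the block (adjusted p = 0.0506). C4b and C1ra, which lie near the detection limit, moved from 0.22 and 0.02 to 0.36 and 0.15 with median scaling and to 0.12 and 0.04 with normexp.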
